A study of Homo sapiens with 17 samples.

Results

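The addition of 10 nM rapamycin to MS275 was examined in L363, a human multiple myeloma cell line, which is a tumor of antibody-secreting plasma cells. The comparison sets the 2 arrays of cells given 10 nM rapamycin with 0.5 uM MS275 against the 3 arrays of cells given 0.5 uM MS275 alone, which are 5 of the 17 arrays in the series. Members were chosen by the array titles. All cells were harvested after 48 hours and their total RNA was read on 1 array per sample. The labels name no alteration that the groups share beyond the line itself. The other groups used here have 3 arrays each: untreated control cells, 10 nM rapamycin alone, 1 nM rapamycin alone, and 1 nM rapamycin with 0.5 uM MS275. The combination has 2 because the submitters discarded 1 array for its quality, as the series' design text states. L363 is a single line. No label tells whether replicate arrays stem from independent cultures, so p-values measure the spread between these arrays, which may be technical.

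Rapamycin binds the protein FKBP12, and the complex inhibits mTORC1, the kinase complex that couples nutrients and growth factors to protein synthesis, lipid synthesis, glycolysis and cell growth. MS275 (entinostat) inhibits class I histone deacetylases, enzymes that remove acetyl groups from histones and so limit transcription at many genes. In myeloma cells both kinds of drug are known to slow proliferation. The comparison addresses what rapamycin changes in cells that already receive the deacetylase inhibitor.

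Against MS275 alone, the combination lowered 49 genes and raised 1 of the 19775 genes tested. The genes that fell encode, among others, replication and mitosis proteins, lipid synthesis enzymes, proteins of the secretory pathway and lysosome, and cell surface receptors. The 50 genes are 0.253% of those tested, the 49 falls 0.248% and the single rise 0.00506%. The test was limma's moderated test on log2 signals, with Benjamini-Hochberg adjusted p under 0.05 as the threshold. The falls ran from 1.79-fold in LMAN2L to 6.32-fold in P4HA1, with a median log2 change of -1.65, where the median of all genes was -0.04. At an unadjusted p under 0.05 there were 890 genes (4.5%), 722 lower (3.65%) and 168 higher. The total lies near the share that this cutoff gives without any effect. Since an array reads the pooled RNA of a culture, fewer cells with a transcript and less of it per cell cannot be told apart.

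**Figure D1:**
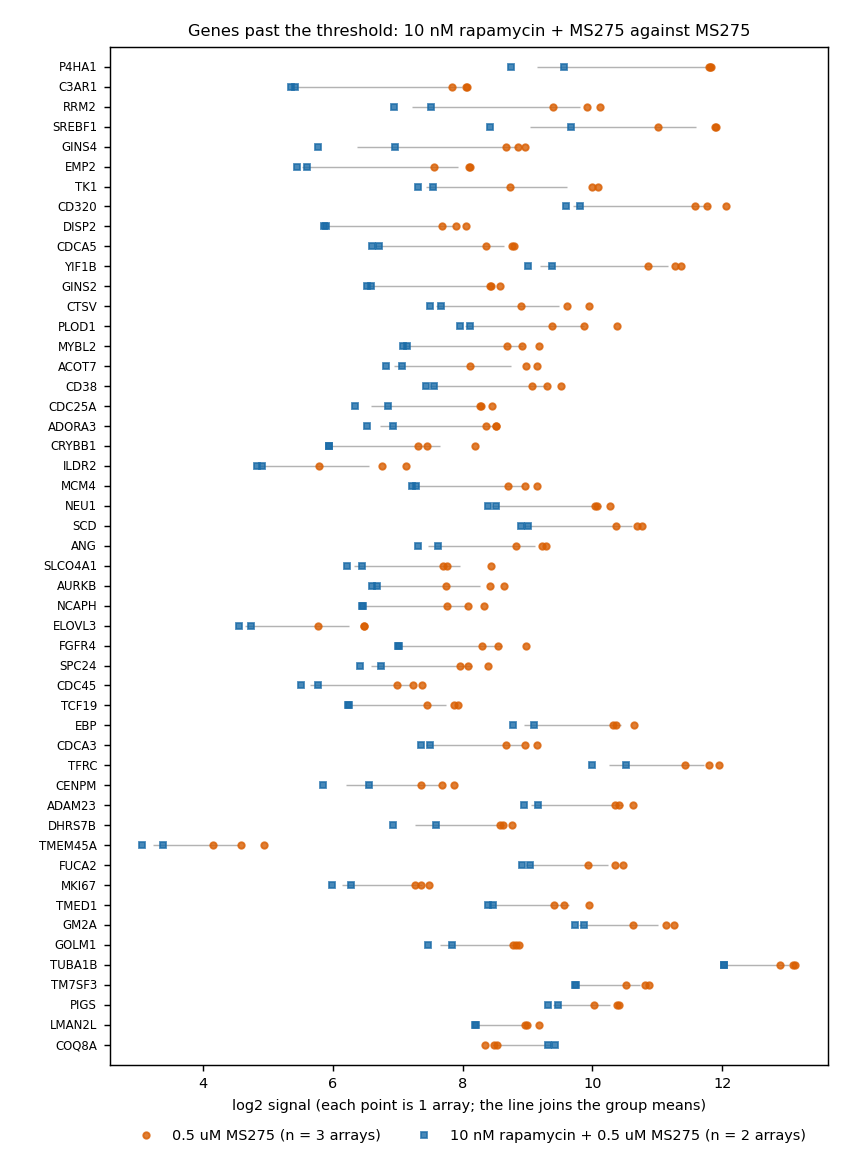
Log2 signal (x axis) of the 50 genes past the threshold (y axis), ordered by log2 change, on each of 3 MS275 arrays (circles) and 2 arrays of 10 nM rapamycin with MS275 (squares), with a line joining the group means. In all 49 genes that fell the squares lie left of every circle, and in COQ8A they lie right of them.

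The arrays of the 2 groups did not overlap in any of the 49 falls, a separation that 11.7% of all genes showed in that direction. The number of calls depended on single arrays. Without replicate 1 of the 10 nM combination 3 genes passed, C3AR1, CDC25A and DISP2. Without its replicate 2 there were 6, which were C3AR1, CD320, DISP2, GINS4, NEU1 and YIF1B. The count was 19 without MS275 replicate 1, 32 without MS275 replicate 3 and 77 without control replicate 1, which enters only through the shared estimate of spread. Omitting any one of the other 12 arrays left 34 to 53 genes. C3AR1 and DISP2 passed in all 17 of these fits, with a largest limma adjusted p of 0.0044 and 0.0171. The calls that passed in the fewest of these fits were LMAN2L and SREBF1 in 3, SLCO4A1, DHRS7B and TK1 in 4, TFRC, FUCA2 and GM2A in 5, PIGS and TM7SF3 in 6, and CENPM and MKI67 in 7. Fitted on the 5 arrays alone, no gene passed in limma. An unadjusted p under 0.05 was found for 1015 of 19775 genes, about the share that this cutoff gives without any effect.

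**Figure D2:**
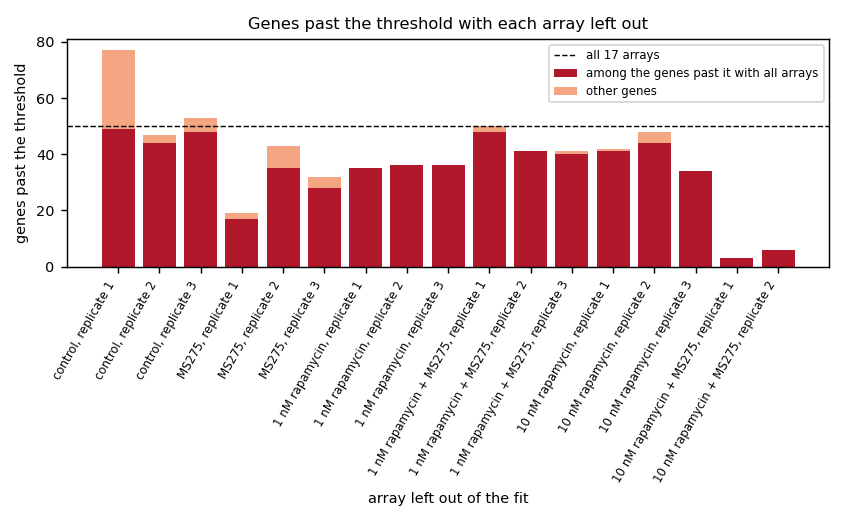
Number of genes past the threshold for 10 nM rapamycin with MS275 against MS275 (y axis) when each of the 17 arrays is left out (x axis), with the part that also passes with all arrays in dark red and other genes in light red. The bars fall to 3 and 6 without replicates 1 and 2 of the combination, against 50 with all arrays (dashed line).

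Array medians of log2 signal ran from 5.09 to 5.36. The first replicates of control and of 1 nM rapamycin with MS275 had a narrower range of values (SD 2.14 and 2.15, against 2.27 to 2.37 on the others), and without both 110 genes passed, 103 of them lower. Of these, 49 were among the 50. The usual quantile step of RMA gives arrays nearly equal distributions, so how these values were normalized is not fully known. The labelled cell type was checked on marker lists, and the 10 plasma cell markers had MS275 means of 8.29 to 12.63. Their summed log2 signal was 108.58 to 113.32 with MS275 and 108.34 to 111.41 in the combination, and CD38 was the one that passed the threshold. Markers of T cells (7 of 8 measured, means 3.88 to 5.78), myeloid cells (6 of 8, 2.67 to 5.70), fibroblasts (8 of 8, 2.82 to 6.94) and epithelial cells (7 of 7, 2.62 to 6.78) had no member past the threshold. The same held for B cell markers (7 of 8, 3.99 to 7.87) and red cell markers (4 of 7, 4.59 to 8.01). Detection calls were not used here, so whether a signal lies above background is not known, and signals of different probe sets cannot be ranked against each other.

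Promoters are shown for 6 of the genes that fell because they carry short motifs known from cell cycle genes: E2F sites, the CHR element and CCAAT boxes. CDC25A, CDCA3, GINS2 and RRM2 act in the cell cycle. C3AR1 and EMP2 encode surface proteins, and both had higher signals in MS275 cells than in control cells. Each run holds the 250 bases before the gene's start in RefSeq (GRCh38.p14), read 5′ to 3′ on the gene's strand, with motif matches in capitals.
CDC25A, chr3:48188418-48188667, minus strand: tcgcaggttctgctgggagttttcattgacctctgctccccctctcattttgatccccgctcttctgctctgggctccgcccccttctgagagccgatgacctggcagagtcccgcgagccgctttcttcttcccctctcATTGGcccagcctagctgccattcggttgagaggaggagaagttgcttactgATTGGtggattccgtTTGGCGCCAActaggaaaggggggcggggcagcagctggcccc
CDCA3, chr12:6851287-6851536, minus strand: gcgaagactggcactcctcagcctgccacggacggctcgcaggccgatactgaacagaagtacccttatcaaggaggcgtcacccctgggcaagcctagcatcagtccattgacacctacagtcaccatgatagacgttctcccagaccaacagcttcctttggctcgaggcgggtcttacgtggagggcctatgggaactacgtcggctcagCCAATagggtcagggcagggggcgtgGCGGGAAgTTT
GINS2, chr16:85688955-85689204, minus strand: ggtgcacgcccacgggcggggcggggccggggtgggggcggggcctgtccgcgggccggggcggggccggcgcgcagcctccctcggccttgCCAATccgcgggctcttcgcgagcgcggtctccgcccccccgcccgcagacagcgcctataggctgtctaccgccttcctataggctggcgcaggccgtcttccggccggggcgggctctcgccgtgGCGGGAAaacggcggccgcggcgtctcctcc
RRM2, chr2:10122489-10122738, plus strand: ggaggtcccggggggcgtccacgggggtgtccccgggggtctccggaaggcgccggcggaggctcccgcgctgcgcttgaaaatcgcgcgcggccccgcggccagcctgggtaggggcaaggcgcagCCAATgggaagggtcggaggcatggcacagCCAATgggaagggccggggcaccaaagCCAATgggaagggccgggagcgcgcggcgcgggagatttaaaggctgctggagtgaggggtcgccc
C3AR1, chr12:8066360-8066609, minus strand: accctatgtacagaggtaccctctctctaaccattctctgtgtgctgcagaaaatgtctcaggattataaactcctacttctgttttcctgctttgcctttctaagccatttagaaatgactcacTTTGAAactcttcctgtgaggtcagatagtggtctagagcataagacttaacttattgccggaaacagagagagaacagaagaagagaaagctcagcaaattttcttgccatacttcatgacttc
EMP2, chr16:10580599-10580848, minus strand: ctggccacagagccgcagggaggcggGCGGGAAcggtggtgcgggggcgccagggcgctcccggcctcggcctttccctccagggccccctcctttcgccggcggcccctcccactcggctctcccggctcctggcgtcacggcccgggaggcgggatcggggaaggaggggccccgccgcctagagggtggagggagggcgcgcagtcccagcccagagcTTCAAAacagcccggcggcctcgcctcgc
The capitals mark E2F matches (TTCCCGC or TTGGCGC), the CHR (TTTGAA) and the CCAAT box (CCAAT), each on either strand. In CDC25A the E2F letters match on both strands over overlapping bases, and ATTGG is CCAAT on the other strand. In CDCA3 the last capitals are the first bases of a CHR that runs past the start. RRM2 holds CCAAT at 3 positions, starting -123, -93 and -66 from the start. Such matches are descriptions of letters and not of bound factors.

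Over 45 of the 49 falls and 15384 genes tested that had a promoter in the table, from 250 bases before to 50 after the start, an E2F match was present in 11 falls (24.4%) against 12.2% of all. A CCAAT box was present in 25 (55.6%) against 36.1%. The CHR was present in 6 (13.3%) against 11.9%, and the E-box CACGTG in 3 (6.7%) against 8.9%. The letters TTGCATC, a form of the ATF4 response element, were in none of the 45 and in 2.0% of all. The 11 genes with an E2F match include EBP, TFRC, SREBF1 and P4HA1 besides the cell cycle genes CDC25A, CDCA3, CDCA5 and GINS2.

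The genes that fell were grouped after their values were seen, by where the MS275 arrays lay against control. In 12 of the 49 every MS275 array lay above every control array, with means more than 1 log2 unit apart. This held for 2.19% of all genes, and 5.7% had no overlap in that direction at any size. MS275 against control shares the MS275 arrays with the comparison that called the falls, so these shares support nothing about the members. These 12 are C3AR1, EMP2, DISP2, ADORA3, P4HA1, CRYBB1, ILDR2, ANG, ELOVL3, FGFR4, ADAM23 and TMEM45A. Their median distance of the combination from control was 0.05, from -1.16 in P4HA1 to 1.06 in ILDR2.

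C3AR1, the receptor for the complement fragment C3a, had log2 signals of 8.06, 7.84 and 8.05 with MS275 and of 5.42 and 5.36 in the combination. Its control arrays held 5.31, 5.55 and 5.05, so the combination lay inside the control range. The fall was 6.07-fold (log2 -2.60 ± 0.20 SE, limma adjusted p = 6.14e-05), the smallest adjusted p of all genes. EMP2, a tetraspan membrane protein, read 8.09, 7.57 and 8.12 with MS275 and 5.60 and 5.45 in the combination, against 4.58, 5.81 and 5.14 in control. Its 5.28-fold fall (-2.40 ± 0.30, adjusted p = 0.0036) again placed the combination within the control arrays. DISP2, a relative of the Dispatched protein that releases Hedgehog ligands, read 7.89, 8.05 and 7.68 with MS275 and 5.86 and 5.90 in the combination. Control held 5.84, 5.92 and 5.79, and the fall was 3.98-fold (-1.99 ± 0.19, adjusted p = 0.000310).

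ADORA3, the adenosine A3 receptor, read 8.51, 8.52 and 8.37 with MS275 and 6.53 and 6.92 in the combination (log2 change -1.74 ± 0.24, adjusted p = 0.00661). Its combination mean of 6.73 lay 0.38 below the control mean. P4HA1, the catalytic subunit of the prolyl hydroxylase that modifies collagen, read 11.81, 11.82 and 11.80 with MS275. It read 8.74 and 9.56 in the combination, and this fall of -2.66 ± 0.42 was the largest of all called genes (adjusted p = 0.0156). The MS275 arrays of P4HA1 lay closely together and its combination arrays did not. It lost its call without MS275 replicate 1 or either combination array, and EMP2 without either combination array.

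Of the others in this group, CRYBB1, a lens crystallin, fell by 1.70 on the log2 scale and ILDR2, an immunoglobulin-like receptor, fell by 1.68. ANG, the secreted ribonuclease angiogenin, fell by 1.65, and ELOVL3, an elongase of long-chain fatty acids, fell by 1.60. FGFR4, a fibroblast growth factor receptor, fell by 1.60 as well, ADAM23, a membrane-anchored disintegrin, fell by 1.41 and TMEM45A, a transmembrane protein, fell by 1.34. Their limma adjusted p ran from 0.005 (CRYBB1) to 0.0283 (ILDR2 and FGFR4). TMEM45A read 3.07 and 3.38 in the combination and ELOVL3 4.55 and 4.75.

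In 20 of the 49 the MS275 arrays already lay below every control array, and the combination went lower again. Of all genes 5.34% lay below control in this way, and here too the MS275 arrays are shared. The median distance of the combination from control in these 20 was -2.56, with a range from -4.09 in RRM2 to -1.07. They include RRM2, MYBL2, CDC25A, MCM4, CDC45, GINS2, AURKB, NCAPH, SPC24, CENPM, CDCA3, MKI67, TCF19, TUBA1B, SCD, EBP, TFRC, SLCO4A1, PIGS and LMAN2L. The remaining 17, such as SREBF1, GINS4, TK1, CD320 and CD38, had MS275 arrays that overlapped control or lay within 1 log2 unit above it.

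**Figure D3:**
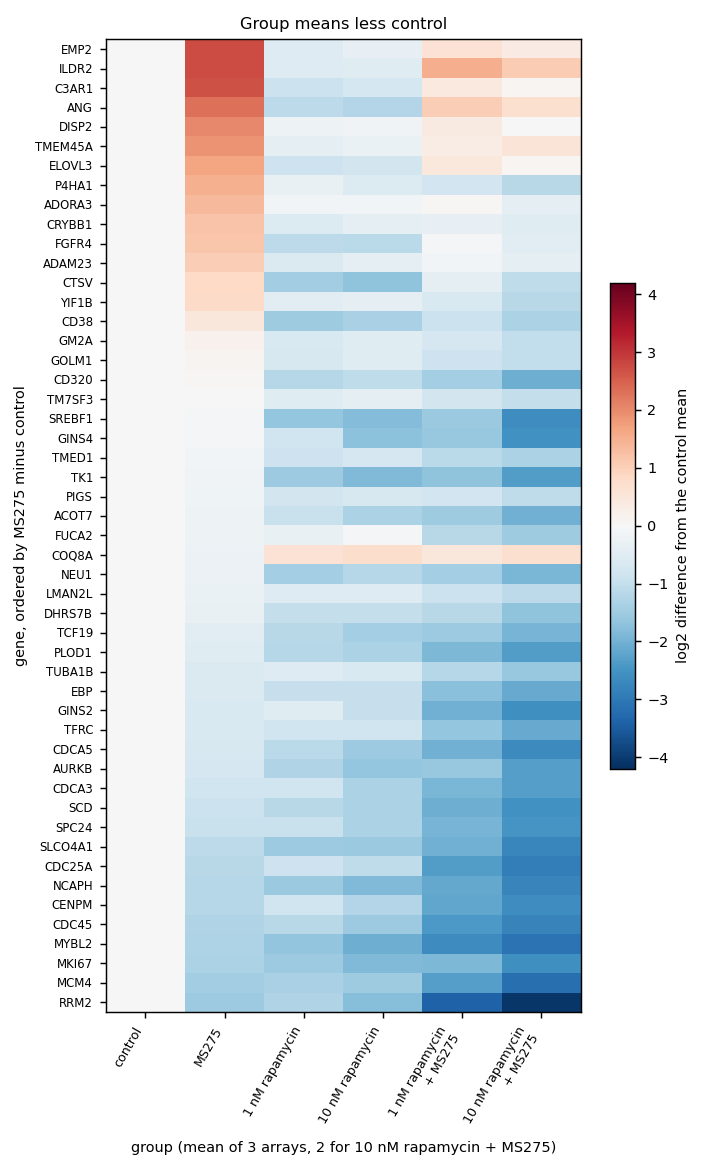
Difference of each group's mean log2 signal from the control mean (color) for the 50 genes past the threshold (rows, ordered by MS275 minus control) in 6 groups (columns, mean of 3 arrays, or 2 for 10 nM rapamycin with MS275). The top 12 rows are red with MS275 and lie between -1.16 and 1.06 in the combination, and the lowest rows are blue with MS275 and darker blue in the combination.

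Genes of DNA replication were among the falls. RRM2, the small subunit of ribonucleotide reductase, which makes deoxynucleotides, read 9.92, 9.40 and 10.11 with MS275 and 6.95 and 7.51 in the combination. The groups were well apart, with a fall of 5.98-fold (log2 -2.58 ± 0.42, limma adjusted p = 0.0181). It did not pass without MS275 replicate 1 or 3 or either combination array. TK1, the thymidine kinase that salvages deoxynucleotides, read 9.99, 8.73 and 10.09 with MS275 and 7.32 and 7.54 in the combination (-2.17 ± 0.41, adjusted p = 0.0476). Its MS275 replicate 2 was the lowest of the group yet above both combination arrays. When all probe sets were tested one by one, a second set of TK1 passed (-2.24, limma adjusted p = 0.00553). The set used here did not pass in that test (adjusted p = 0.0814). TK1 passed in 4 of the 17 fits that left out an array (largest adjusted p = 0.431).

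GINS4 and GINS2 are subunits of the GINS complex, which forms the replicative helicase with CDC45 and the MCM ring. GINS4 read 8.96, 8.68 and 8.86 with MS275 and 5.78 and 6.96 in the combination (-2.46 ± 0.34, adjusted p = 0.00639). GINS2 read 8.42, 8.44 and 8.58 against 6.53 and 6.59 (-1.92 ± 0.24, adjusted p = 0.0036). The helicase genes CDC45 and MCM4 fell by 1.56 and 1.68, so members of each part of the helicase were lower. Another MCM4 probe set, with a mean of 8.46 beside 8.87 for the set used, changed by -1.10 and did not pass. CDC25A, the phosphatase that activates CDK2, read 8.45, 8.29 and 8.26 against 6.85 and 6.34 (-1.74 ± 0.23, adjusted p = 0.00463). MYBL2, a transcription factor of the cell cycle, fell by 1.81, from 9.18, 8.69 and 8.91 to 7.14 and 7.09. TCF19, a nuclear protein of proliferating cells, fell by 1.50. One other probe set of GINS2 was higher in the combination without being called.

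Of the 42 listed G1/S and replication genes, 5 fell (GINS4, GINS2, CDC25A, MCM4 and CDC45) and 37 did not pass. The list's median change was -1.09 against -0.04 for all genes. All 42 log2 changes were negative, where 11172 of all 19775 genes were. In 32 the arrays were lower without overlap, against 11.7% of all genes. The negative changes were 39 of the 42 without combination replicate 1 and 40 without replicate 2. Without either combination array 1 member passed, without control replicate 1 there were 10, and without both narrow arrays 14. MCM5, another MCM ring subunit, read 9.50, 9.24 and 9.16 with MS275 and 8.33 and 7.68 in the combination, and its -1.30 ± 0.32 did not pass (adjusted p = 0.151). Among 12 genes of deoxynucleotide supply RRM2 and TK1 fell, with a list median of -0.62, which was -0.20 without combination replicate 1 and -1.04 without replicate 2. None of 21 genes of homologous recombination and Fanconi repair passed, with a median of -0.69 and 13 of them with lower arrays that did not overlap. The largest changes there were in EXO1, a nuclease (-1.70, adjusted p = 0.257), and UBE2T, a ubiquitin conjugating enzyme (-1.69, adjusted p = 0.169).

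Of 17 E2F, MYB and FOXM1 factors 1 fell, MYBL2, and the list median was -0.16 (-0.32 without MS275 replicate 1, -0.10 without combination replicate 2). E2F2, an activator of S phase genes, read 8.48, 8.21 and 7.89 with MS275 and 6.80 and 6.10 in the combination, and its -1.74 ± 0.35 did not pass (limma adjusted p = 0.0675). FOXM1, an activator of mitotic genes, read 8.51, 7.90 and 7.91 against 6.70 and 6.24 (-1.64 ± 0.35, adjusted p = 0.0862). Neither gene's arrays overlapped, a separation that 11.7% of all genes showed in that direction.

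Mitosis genes formed a further group. All 41 listed had negative changes, where 11172 of all 19775 genes did. In 33 the arrays were lower without overlap, against 11.7% of all genes. Of the 41 listed, 5 fell and 36 did not pass, with a median of -1.07. Without replicate 1 or replicate 2 of the combination, or without MS275 replicate 1, none of these passed. The count was 1 without MS275 replicate 3, 3 without replicate 3 of either rapamycin dose alone, 9 without control replicate 1 and 10 without both narrow arrays. CDCA5 (sororin), which protects sister chromatid cohesion, read 8.75, 8.37 and 8.79 with MS275 and 6.61 and 6.71 in the combination (-1.98 ± 0.30, adjusted p = 0.0108). AURKB, the kinase of the chromosomal passenger complex, read 8.42, 7.75 and 8.64 against 6.68 and 6.61 (-1.63 ± 0.27, adjusted p = 0.0204).

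NCAPH, a condensin subunit, fell by 1.60, CDCA3, a trigger of mitotic entry, fell by 1.49, and MKI67, which coats mitotic chromosomes, fell by 1.24. MKI67 read 7.27, 7.49 and 7.37 with MS275 and 6.28 and 5.99 in the combination, against 8.72, 8.77 and 8.60 in control. SPC24 and CENPM, both of the kinetochore and outside the list, fell by 1.56 and 1.43. The related mitotic kinase AURKA read 8.38, 7.96 and 8.66 against 7.20 and 7.57, and its -0.95 ± 0.29 did not pass (adjusted p = 0.416). TUBA1B, an alpha tubulin, fell by 1.00 ± 0.17 as 1 of 19 tubulin and actin genes. TUBA1A, another alpha tubulin, read 10.47, 10.32 and 10.90 against 8.93 and 9.53, and its -1.33 ± 0.28 did not pass (adjusted p = 0.0731). The alpha tubulin genes are closely alike in sequence, and whether their probe sets read each other's RNA was not tested.

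Lipid synthesis genes fell too. SREBF1, the transcription factor that drives fatty acid synthesis and a known target of mTORC1 signaling, read 11.90, 11.89 and 11.01 with MS275 and 9.66 and 8.43 in the combination (-2.56 ± 0.49, limma adjusted p = 0.0490). Its arrays were widely spread in both groups, and its adjusted p is the largest among the calls. It passed in 3 of the 17 fits that left out an array (largest adjusted p = 0.616). SCD, the desaturase that makes monounsaturated fatty acids, read 10.69, 10.77 and 10.37 against 9.01 and 8.90 (-1.66 ± 0.28, adjusted p = 0.0221). These were the 2 falls among 16 fatty acid genes, whose median was -0.20 (-0.13 without MS275 replicate 1). ACOT7, an acyl-CoA thioesterase, fell by 1.80 and DHRS7B, a reductase, fell by 1.39.

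EBP, a sterol isomerase of cholesterol synthesis, read 10.64, 10.36 and 10.31 with MS275 and 8.78 and 9.10 in the combination (-1.50 ± 0.22, adjusted p = 0.00952). It was the single fall among 22 sterol genes measured of 28 listed, which had a median of -0.63. All 22 changes were negative, where 11172 of all 19775 genes were. INSIG1, which retains SREBP proteins in the endoplasmic reticulum, read 10.06, 8.83 and 9.86 against 6.70 and 7.75, and its -2.36 ± 0.47 did not pass (adjusted p = 0.0588). SCARB1, a lipoprotein receptor, had a change of -1.81 ± 0.40 that did not pass (adjusted p = 0.0956).

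Among 30 genes of glycolysis and hypoxia P4HA1 alone fell, with a list median of -0.66. Of the 30 changes 28 were negative, where 11172 of all 19775 genes were. LDHA, lactate dehydrogenase A, read 12.90, 12.55 and 12.87 with MS275 and 11.41 and 12.10 in the combination (-1.02 ± 0.23, adjusted p = 0.110, not past the threshold). PGAM1, a glycolytic mutase, had -0.86 ± 0.20 (adjusted p = 0.135). PLOD1, a lysyl hydroxylase that like P4HA1 modifies collagen, fell by 1.83 and is on none of the lists.

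A further set of falls encodes receptors, transporters and proteins of the secretory pathway and lysosome. CD320, the receptor that takes up vitamin B12 bound to transcobalamin, read 12.06, 11.76 and 11.58 with MS275 and 9.60 and 9.80 in the combination (-2.10 ± 0.26, limma adjusted p = 0.0036). TFRC, the transferrin receptor for iron uptake, read 11.80, 11.42 and 11.95 against 9.99 and 10.51 (-1.47 ± 0.27, adjusted p = 0.0377). Another TFRC probe set, with a mean of 11.15 beside 11.43 for the set used, changed by -0.83 and did not pass. CD38, a plasma cell surface enzyme that breaks down NAD, read 9.51, 9.31 and 9.07 against 7.56 and 7.43 (-1.80 ± 0.23, adjusted p = 0.00371), a call lost without either combination array. CD38 was the single fall among 18 plasma cell genes, whose median was 0.02 and turned to -0.10 without combination replicate 1 and to -0.09 without MS275 replicate 3. SLCO4A1, an organic anion transporter, fell by 1.63.

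YIF1B, a Golgi transport protein, read 11.37, 11.27 and 10.86 with MS275 and 9.01 and 9.37 in the combination (-1.98 ± 0.25, adjusted p = 0.0036). TMED1, a cargo receptor of the early secretory pathway, fell by 1.21, GOLM1, a Golgi membrane protein, fell by 1.17, and LMAN2L, a lectin of the same pathway, fell by 0.84. PIGS, a subunit of the transamidase that attaches GPI anchors, fell by 0.89, and TM7SF3, a membrane protein, fell by 0.99. As in all 49 falls, no arrays overlapped between the groups in these genes, which is no separate evidence. None of 26 genes of the unfolded protein response and secretion passed, with a median of -0.32 (-0.18 without MS275 replicate 2).

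Of the lysosomal and related enzymes, NEU1, a sialidase, read 10.27, 10.05 and 10.07 with MS275 and 8.40 and 8.52 in the combination (-1.67 ± 0.20, adjusted p = 0.0036). CTSV, the protease cathepsin V, fell by 1.90, FUCA2, a secreted fucosidase, fell by 1.27, and GM2A, the activator of ganglioside breakdown, fell by 1.21. NEU1 was the one fall among 31 listed lysosome and autophagy genes, whose median was -0.19. That median was 0.06 without combination replicate 1 and -0.39 without replicate 2, and -0.08, -0.34 and -0.09 without MS275 replicates 1, 2 and 3. GLA, the alpha-galactosidase of lysosomes, had -1.43 ± 0.34 and CTSB, cathepsin B, -0.83 ± 0.22, and neither passed (adjusted p = 0.143 and 0.223).

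COQ8A was the one gene that rose. It encodes a mitochondrial protein needed to make coenzyme Q. It read 8.48, 8.35 and 8.54 with MS275 and 9.31 and 9.42 in the combination, a rise of 1.88-fold (0.91 ± 0.14, limma adjusted p = 0.0138). The control arrays read 8.61, 8.75 and 8.72, below both combination arrays. It did not pass without MS275 replicate 1 or without either combination array (largest adjusted p = 0.258). The 10 nM rapamycin arrays without MS275 read 9.39, 9.46 and 9.44, close to the combination. A second probe set of COQ8A had a change of 0.46 that did not pass (adjusted p = 1.0).

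The genes with the next smallest p among higher values did not pass. FRAT1, an inhibitor of GSK3, read 5.98, 5.29 and 5.40 with MS275 and 6.94 and 7.17 in the combination (1.50 ± 0.30, adjusted p = 0.0595). ACVR2B, an activin receptor, had 0.99 ± 0.21 (adjusted p = 0.0742) and SH3YL1 1.13 ± 0.24 (adjusted p = 0.0862). RASGRP3, an activator of RAS proteins, had 1.32 ± 0.32 (adjusted p = 0.151) and FBXO32, a ubiquitin ligase and FOXO target, 1.06 ± 0.27 (adjusted p = 0.173). Of all genes, 6.37% had higher combination arrays that did not overlap with MS275.

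The 35 pathway lists had 802 of 889 entries measured. Of the 49 falls 20 were on a list, spread over 10 lists, and 29 were on none. No list member rose. In the 8 lists with 1 or 2 falls the count went to 0 when either combination array was left out, except that NEU1 passed without replicate 2. The largest positive median was that of the MHC class II genes, which present peptides to helper T cells. None of its 16 members passed, and the median was 0.49 (0.32 without combination replicate 2). Of the changes 14 were positive, where 8568 of all 19775 genes were. Higher arrays without overlap were found in 11, against 6.37% of all genes. HLA-DRB4 read 9.43, 9.56 and 10.00 with MS275 and 10.38 and 11.56 in the combination (1.31 ± 0.38, limma adjusted p = 0.343). HLA-DPB1 had 0.79 ± 0.21 (adjusted p = 0.242), and CD74, the invariant chain, had 0.51 ± 0.15 (adjusted p = 0.371). Some class II genes are near copies of each other, and whether their probe sets share signal was not tested.

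**Figure D4:**
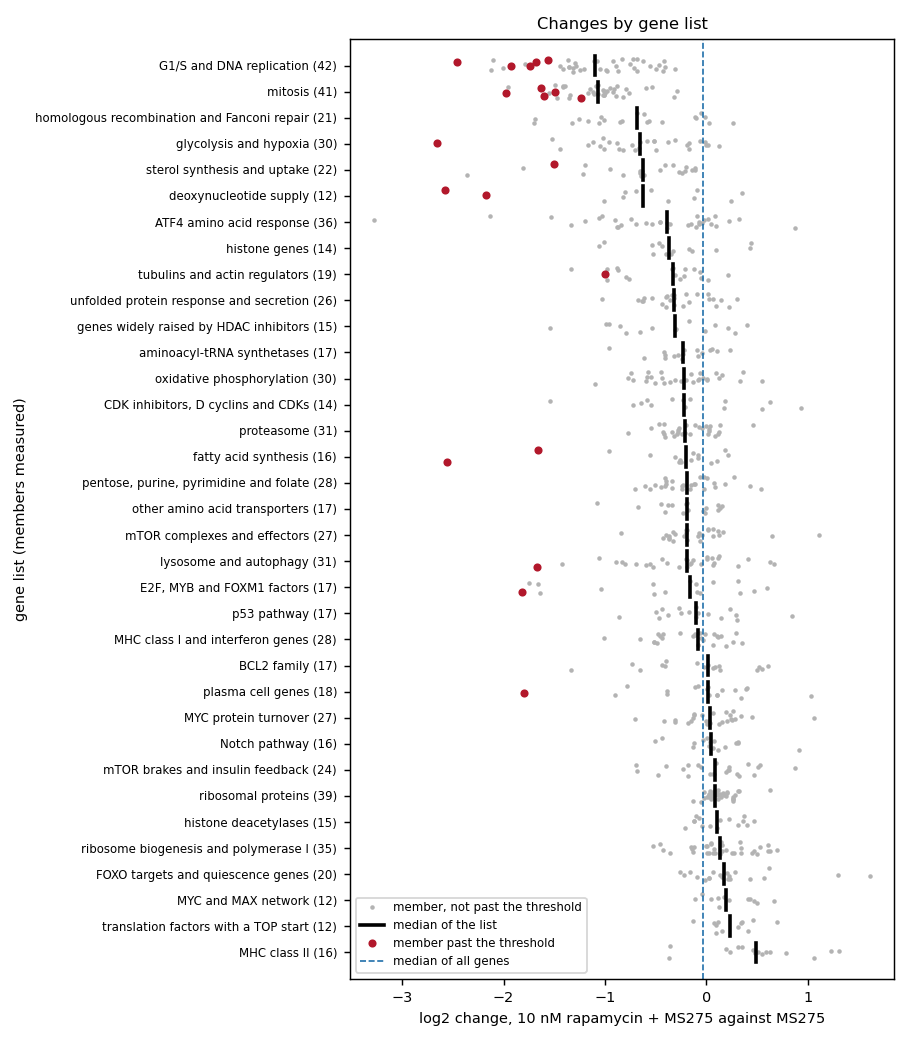
Log2 change of 10 nM rapamycin with MS275 against MS275 (x axis) for the measured members of 35 gene lists (y axis, number measured in brackets), with members past the threshold in red, others in grey, list medians as black bars and the median of all genes as a dashed line. The G1/S and mitosis lists have the lowest medians, -1.09 and -1.07, and MHC class II the highest, 0.49.

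Translation genes, whose protein output mTORC1 controls, did not pass at the RNA level. The 39 ribosomal protein genes measured of 56 listed had a median of 0.09, which was 0.20 and 0.04 without combination replicate 1 or 2 and 0.14 without MS275 replicate 3. Positive changes were 35 of the 39, where 8568 of all 19775 genes were, but 18 were negative without combination replicate 2. Higher arrays without overlap were found in 12, against 6.37% of all genes. The 12 translation factors with a TOP start, the sequence that ties their translation to mTORC1, had a median of 0.23 (0.06 without combination replicate 2, 0.14 without MS275 replicate 2). Of their changes 11 were positive, and 4 had higher arrays without overlap. The 35 genes of ribosome biogenesis had 27 positive changes and a median of 0.14. It was 0.31 without combination replicate 1, -0.04 without replicate 2, and 0.03 and 0.23 without MS275 replicates 2 and 3. No member of the 27 mTOR complex and effector genes passed. Their median of -0.19 was -0.04 and -0.43 without combination replicate 1 or 2, and -0.06 and -0.12 without MS275 replicate 1 or 3. None of 36 ATF4 amino acid response genes passed either, with 29 negative changes, where 11172 of all 19775 genes were lower. Their median was -0.39. That median was -0.21 and -0.58 without combination replicate 1 or 2, and -0.61 without MS275 replicate 2.

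The largest change on the ATF4 list was that of DDIT4, an mTORC1 inhibitor induced by stress. It read 9.72, 10.58 and 8.67 with MS275 and 6.49 and 6.28 in the combination. The change of -3.27 ± 0.77 exceeded that of every called gene, but its MS275 arrays were widely spread and it did not pass (limma adjusted p = 0.132). INHBE, an activin subunit, read 9.60, 7.63 and 8.68 against 5.79 and 7.21 (-2.13 ± 0.57, adjusted p = 0.242). SLC1A4, an amino acid transporter, had -1.54 ± 0.33 (adjusted p = 0.0941). SLC7A5, the light chain of a leucine transporter, had -1.06 ± 0.26 (adjusted p = 0.149) and its heavy chain SLC3A2 -1.03 ± 0.34 (adjusted p = 0.531).

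MYC, the oncogenic transcription factor, read 12.32, 11.89 and 12.46 with MS275 and 12.06 and 12.84 in the combination. These arrays overlapped, and the change of 0.22 ± 0.30 had a 95% interval from -0.41 to 0.86 (limma adjusted p = 1.0). Its sign turned to -0.17 without replicate 2 of the combination. Its partner MAX had 0.47 ± 0.39 (adjusted p = 1.0), and none of 12 genes of the MYC and MAX network passed, with a median of 0.20. CDKN1A, the cell cycle inhibitor p21, read 10.51, 8.98 and 10.10 against 8.18 and 8.46 (-1.54 ± 0.48, adjusted p = 0.443). BCL2L11, the gene of the apoptosis trigger BIM, read 9.79, 10.40 and 10.52 against 10.79 and 10.69 (0.50 ± 0.33, adjusted p = 1.0).

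Rapamycin at 10 nM without MS275, against control, compares none of the same arrays. Its arrays did enter the shared estimate of spread by which the falls were called, so this comparison is not fully independent. All 49 genes that fell with MS275 also had lower means there, with log2 changes from -2.06 in MYBL2 to -0.08 in FUCA2 and a median of -1.08. In 41 of the 49 these arrays did not overlap with control, against 4.92% of all genes. Across the 19775 genes the log2 changes with and without MS275 had a Pearson correlation of 0.62, as a description of genes that are not independent. For RRM2 the change was -1.80 ± 0.37 without MS275 beside -2.58 ± 0.42 with it, and for MKI67 it was -1.87 ± 0.20 beside -1.24 ± 0.23. In the 12 genes that MS275 arrays held above control, the median without MS275 was -0.45. Those 12 were chosen in part by their low control arrays, which this change shares, so that median is no separate evidence.

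**Figure D5:**
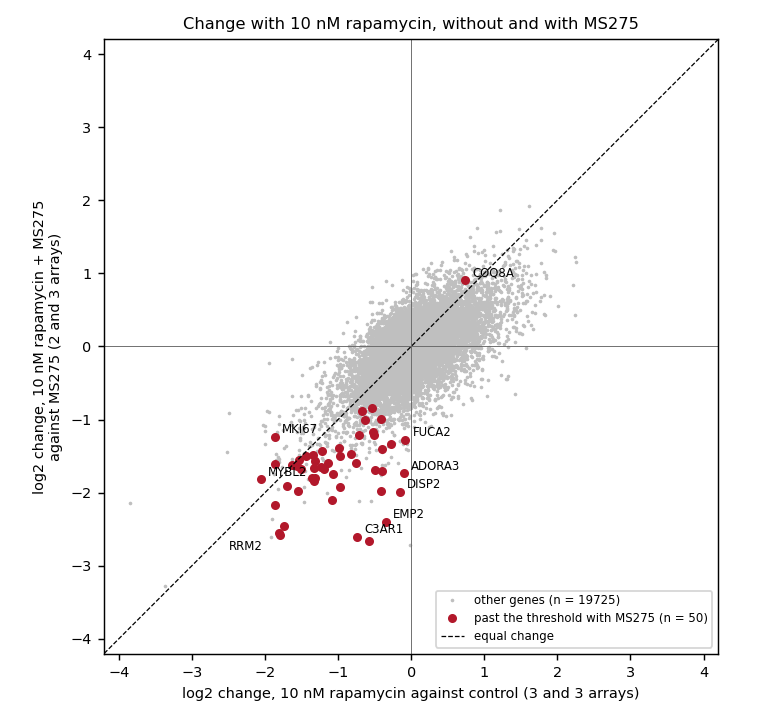
Log2 change with 10 nM rapamycin without MS275 (x axis, 3 arrays against 3) and with MS275 (y axis, 2 arrays against 3) for 19775 genes, with the 50 genes past the threshold with MS275 in red and equal change as a dashed line. All 49 falls lie left of 0 on the x axis, and C3AR1, EMP2, DISP2 and ADORA3 lie far below the dashed line.

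The difference between these effects was tested as the interaction of 10 nM rapamycin and MS275. No gene passed in limma, and 194 (0.981%) had an unadjusted p under 0.05. That share is below what the cutoff gives without any effect, so the lack of calls does not show equal effects. The smallest adjusted p values were those of DISP2 and C3AR1. DISP2 changed by -0.16 ± 0.17 with rapamycin alone and by -1.99 ± 0.19 beside MS275, a difference of -1.83 ± 0.25 (adjusted p = 0.0620). For C3AR1 the values were -0.74 ± 0.18 and -2.60 ± 0.20, and the difference was -1.86 ± 0.27 (adjusted p = 0.0733). Over 26 alternative settings the adjusted p ran from 0.00688 to 0.614 for DISP2 and from 0.00688 to 0.803 for C3AR1. EMP2 had a difference of -2.06 ± 0.41 with an adjusted p of 0.855. The interaction contains the arrays by which the falls were called, so its sign in these genes is no separate evidence.

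The lower dose was set beside the higher one. Against the same MS275 arrays, which both comparisons share and by which the genes were called, 1 nM rapamycin with MS275 had lower arrays without overlap in all 49 genes (3.46% of all genes), with a median log2 change of -1.21. The 10 nM mean was below the 1 nM mean in 48, the exception being TMEM45A, and in 37 the 10 nM combination had the lowest mean of the 6 groups. Low arrays of the 10 nM combination are what called the 49, so neither count is separate evidence of a dose effect. In limma 152 genes (0.769%) had an unadjusted p under 0.05 between the doses, again below what the cutoff gives without an effect. The difference itself passed for no gene, which does not show that the doses act equally. Its median over the 49 was -0.44, where all genes had -0.096, and the median 95% interval of a gene extended 0.60 to either side. RRM2, for instance, read 7.26, 7.83 and 8.68 at 1 nM with MS275 and 6.95 and 7.51 at 10 nM, and these arrays overlapped. C3AR1 read 5.89, 5.35 and 5.86 at 1 nM and 5.42 and 5.36 at 10 nM, again with overlap.

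Other probe sets of the same genes gave a second reading. Of the falls, 27 genes had 61 further singly named probe sets, and 57 of these were lower in the combination. Tested one by one over 41091 probe sets, 6 of the 61 passed, in SCD, TUBA1B, TK1 and EMP2. The 4 that were higher belong to GINS2, GOLM1, TM7SF3 and SLCO4A1. Over all probe sets 49 passed, 46 of them lower, in 43 genes.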

How the data were processed

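Total RNA was measured on 17 arrays, with groups taken from the titles. The authors deposited log2 signals per probe set, made with affy and RMA per the submitters' processing notes; their versions are not stated there. Values were used as deposited. Their SD differs between arrays, from 2.14 to 2.37, which the quantile step of standard RMA would hardly leave, so the normalization is not fully known. Of 54613 probe sets, 41091 name 1 gene, 1801 several and 11721 none, and 41037 matched RefSeq (GRCh38.p14) by Entrez ID. Each of 19775 genes was read by the brightest of its singly named probe sets, by mean over the 17 arrays.

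limma 3.58.1 in R 4.3.3 (lmFit, eBayes) fitted 6 group means on all 17 arrays. Benjamini-Hochberg adjustment ran over all genes, with 0.05 as threshold, and was tested on simulated data. That simulation drew independent noise for each gene, with the same spread on every array. Whether the threshold holds for arrays whose deviations are shared across genes was not tested. The members and lists were chosen with earlier results of these data known. The rule for named genes takes the 12 largest falls and rises past the threshold without overlap (filled up, for rises, by the smallest p not past it), the 3 lowest adjusted p per list, genes of interest and, for the interaction, the 5 smallest p in each direction. The other called genes are named outside that rule, after their values were seen. Alternatives were other fits, scalings, probe set rules and omitted arrays. Precision is limited by the number of arrays: the median 95% interval extended 0.60 to either side, and 0.81 for the interaction. Intervals cover these arrays only. Log2 changes carry the SE of the fit.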

Additional observations from a re-analysis of the deposited data

How the results depend on the processing

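The number of genes past the threshold between the 10 nM combination and MS275, 50 as reported, was 0 with only the 5 arrays compared, 14 with the MS275-treated arrays, 25 with trend and robust moderation, and 110 without the narrow arrays. It stayed within 1.5 times with array weights (64), quantile normalization (37), median centring (45), the mean of probe sets (36), brighter genes (43) and each probe set by itself (49). The members changed more: 41 of the 64, 32 of the 37, 39 of the 45, 31 of the 36 and 42 of the 43 were among the 50. With each probe set by itself, the sets used for SREBF1 and TK1 did not pass (limma adjusted p = 0.0831 and 0.0814). Nor did those of SLCO4A1 (0.0661), TFRC, CENPM, DHRS7B, LMAN2L and FUCA2 (0.0636 each), GM2A (0.0624), MKI67, TM7SF3 and PIGS (0.0589 each). Leaving out 1 array gave 3 to 77 genes. No called gene changed sign in any setting. The MYC change turned to -0.168 without replicate 2 of the combination and reached 0.61 without replicate 1. The interaction passed for 2 genes, C3AR1 and DISP2, with array weights, quantile normalization, median centring or the mean of probe sets, and leaving out 1 array gave 0 to 2. The cause was not tested. The median of the G1/S list ran from -1.26 to -0.89 over all settings, of the mitosis list from -1.20 to -0.98, and of MHC class II from 0.32 to 0.53. In 12 of the 35 lists, among them lysosome, ribosome biogenesis, proteasome and plasma cell genes, the median changed sign when 1 array of the combination was left out.

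With the replicate number as a block 100 genes passed, 86 of them lower, including all 50. In limma 1324 genes then had an unadjusted p under 0.05, against 890 without the block. The counts were 344 against 194 for the interaction and 737 against 152 between the doses. The labels do not say that numbers pair arrays. Deviations from the group means correlated at 0.07 for replicate 1 and -0.66 for replicate 2 of the 2 groups, and equal numbers were not taken as pairs. Correlations in 2 groups cannot decide whether replicate numbers mark an effect shared over the series. Across unequal numbers, combination replicate 1 correlated at 0.66 with MS275 replicate 2 and -0.78 with replicate 3, and combination replicate 2 at 0.78 with MS275 replicate 3 and -0.07 with replicate 1. With 2 arrays in the group its deviations are mirror images, and whether other numbers pair the arrays was not tested.

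No detection calls were used, so signal over background is unknown for low genes such as TMEM45A.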
